A study of Mus musculus with 15 samples.

Results

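Genes of the proteasome were taken as every row of the deposited expression table whose symbol begins with Psm, followed by a letter from a to g and a digit. This rule gave 49 of 12798 genes. By role they were 8 alpha-ring and 7 constitutive beta-ring subunits of the 20S core, and the 3 inducible beta subunits Psmb8, Psmb9 and Psmb10, which are described apart. Further members were 6 ATPases and 11 non-ATPase subunits of the 19S cap, 3 assembly chaperones of the cap and 4 of the core. The remaining members were 5 genes of the PA28 and PA200 activators, the inhibitor PI31 (Psmf1) and Psmc3ip. Psmc3ip fits the symbol rule but encodes a meiotic recombination factor and no proteasome subunit, and its values are given separately. Every member passed the filter on low values (2 or more libraries at a log2 value of 0 or above), and 48 of the 49 had a log2 value of at least 3 in every library. The exception was Psma8.

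The study profiled stages of early innate lymphoid cell (ILC) development in mouse bone marrow by bulk RNA sequencing, in wild-type and Tcf7-mutant mice. The table held 15 libraries of cells sorted as Lin- Kit+ 2B4+, all from the C57BL/6 background. ALP_WT (3 libraries), the lymphoid progenitor, was sorted as a4b7- Flt3high IL-7Ra+ from Tcf7EGFP/+ mice. EILP_KO (2 libraries) and EILP_WT (3 libraries), early ILC progenitors, were a4b7+ Tcf7+ Thy1- cells. EILP_KO came from Tcf7EGFPnull/- mice, with 2 null alleles, and EILP_WT from Tcf7EGFPnull/+ mice, so that these controls carried 1 null allele of Tcf7, the gene of the transcription factor TCF-1. The same gate was split by level of Zbtb16, the gene of the transcription factor PLZF, in Tcf7GFP Zbtb16GFP mice, into sEILP_WT (Zbtb16low Flt3high, 2 libraries) and cEILP_WT (Zbtb16high Flt3low, 3 libraries). ILCP_WT (2 libraries), the ILC precursor, was sorted as Thy1+ IL-7Ra+ within a4b7+ Tcf7+ cells of Tcf7EGFP/+ mice. Reporter alleles therefore differed between sEILP_WT and ALP_WT, between ILCP_WT and cEILP_WT, and between EILP_WT and both ALP_WT and ILCP_WT, so strain and stage cannot be told apart there. The labels do not state that replicates came from separate animals, and p-values measure the spread between these samples, which may be technical.

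The proteasome degrades ubiquitin-tagged proteins. Its barrel-shaped 20S core stacks outer alpha rings, which form the gate, around inner beta rings, in which Psmb5, Psmb6 and Psmb7 carry the proteolytic sites. The 19S cap binds tagged substrates, removes ubiquitin and threads them into the core with its ring of ATPases. In lymphoid cells and after interferon, Psmb8, Psmb9 and Psmb10 replace Psmb5, Psmb6 and Psmb7 and form the immunoproteasome, which supplies peptides for MHC class I.

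Values were the authors' deposited log2 values, with nearly the same distribution in every library. Their unit is not stated and was taken, from the values, to be log2 CPM (read counts scaled to a fixed library total). Scaling by transcript length is not stated either, so levels of different genes are not ranked against each other. The table holds no counts, and sequencing depth is unknown. In each library the undetected genes share 1 lowest value, between -4.83 and -4.41, held by 747 to 2575 genes. The targeted gene was checked first: Tcf7 stood at 6.97 and 7.65 in EILP_KO libraries, against 9.89 to 11.14 in EILP_WT libraries, so transcript remained but at a lower level. Which part of Tcf7 the null allele removes is not given in the sources used here. Thy1 was 4.85 and 4.99 in ILCP_WT libraries and at most 2.46 elsewhere, whereas Il7r was at the lowest value in 1 EILP_WT library. Of 9 genes of the gates and reporters, 0 were called in cEILP_WT against sEILP_WT, a split set by Zbtb16 and Flt3. In that comparison 0% of all genes were called.

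Group means of the proteasome genes lay closer together than those of the median tested gene, and so did libraries within a group. The mean log2 value of 44 of the 49 members lay above that of the median tested gene. This placing serves only to choose a background of genes and is no measure of abundance. The highest and the lowest of the 6 group means differed by a median of 0.608 log2 units over the members, against 1.71 over all 12572 genes tested and 0.950 over genes with an above-median mean. The spread within groups was smaller too, with a median SD of 0.225 for the members, 0.721 for all genes and 0.399 for genes above the median. Range and spread were thus both smaller, and the range was not set against the spread gene by gene. The above-median genes were not matched to the members for level, with a median mean of 6.34 against 7.66. The part of level in these smaller values was not tested. The lowest group mean fell in ILCP_WT for 33 of 49 members (67.3%), against 29.4% of all genes and 37.3% of above-median genes. The highest group mean fell in EILP_KO for 23 of 49 members (46.9%), against 19% of all genes. A test across the 6 groups (limma's moderated F, Benjamini-Hochberg adjusted p under 0.05, the threshold used throughout) called 0 of 49 members. It called 8.36% of all genes, and 9 members (18.4%) had an unadjusted p under 0.05, against 24.2% of all genes. Psma7 came closest, with a limma adjusted p of 0.0683.

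**Figure D1:**
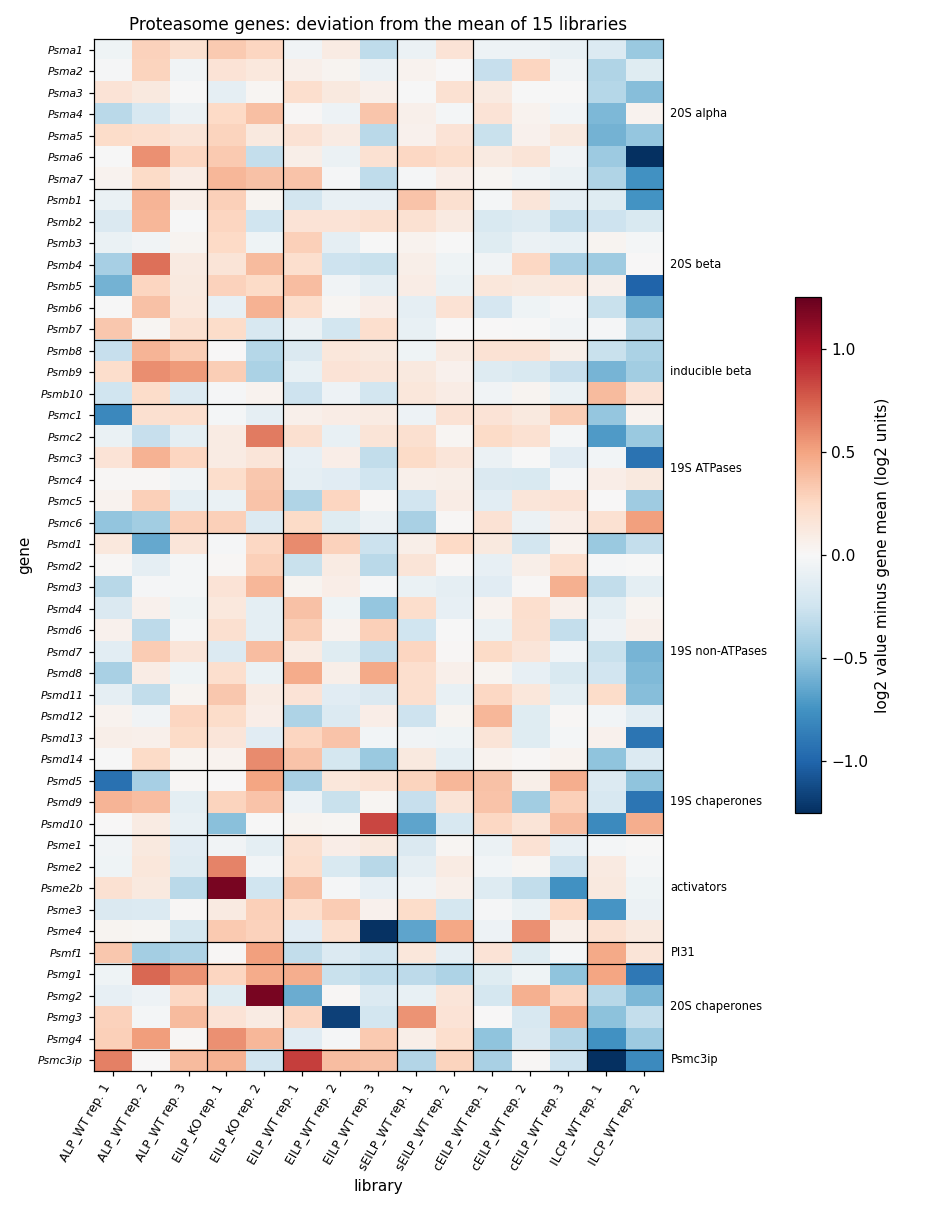
Heat map of 48 proteasome genes (rows, grouped by role; Psma8 is left out) in 15 libraries (columns, grouped by sorted population); the colour gives the log2 value minus the gene's own mean over the 15 libraries, from blue (lower) to red (higher). The columns of ILCP_WT on the right hold the most blue cells, in the alpha ring above all, while Psmb10, Psmc6 and Psmf1 are red there.

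Proteasome transcripts stood lowest in the ILCP_WT libraries, by a small amount spread over most members. For the 47 members other than Psma8 and Psmc3ip, the median deviation from each gene's own mean was -0.20 and -0.30 log2 units in the 2 ILCP_WT libraries. In the other 13 libraries it lay between -0.07 (EILP_WT replicate 3) and 0.17 (EILP_KO replicate 1), so both ILCP_WT libraries stood below all others. All tested genes also had their lowest median deviations in the ILCP_WT libraries, at -0.01 in both, against 0.05 to 0.11 in the others. ILCP_WT replicate 1 was the lowest of the 15 libraries for 10 of these 47 members, and replicate 2 for 17. In bulk RNA, fewer cells of a type and less RNA per cell cannot be told apart.

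**Figure D2:**
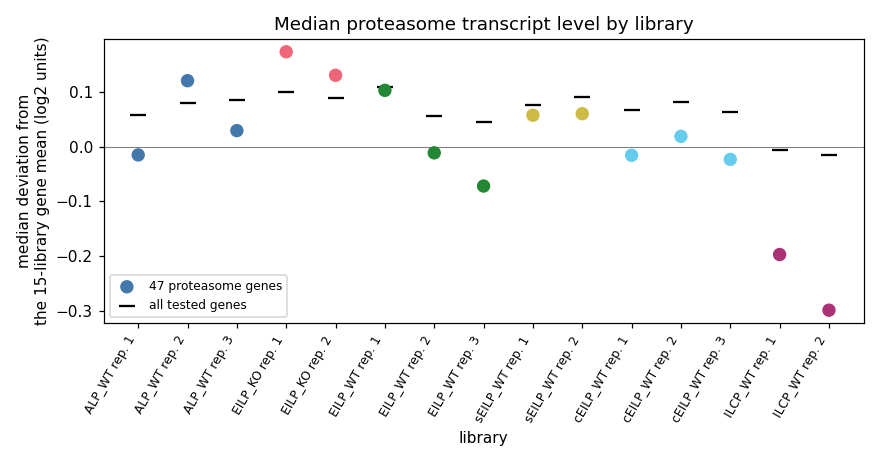
Median deviation from the gene's mean of 15 libraries (y axis, log2 units) for 47 proteasome genes (points, coloured by group) and for all tested genes (black dashes), by library (x axis). The ILCP_WT points lie at -0.20 and -0.30, below the other 13 points. The dashes for all genes in these libraries lie at -0.01, also below the other 13 dashes, which lie at 0.05 to 0.11.

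Against ALP_WT, 6 of 49 members fell in ILCP_WT cells and 0 rose (limma adjusted p under 0.05). The called genes were Psma3, Psma5, Psma6 and Psma7 of the alpha ring, the inducible subunit Psmb9 and the ATPase Psmc3. In that comparison 13.4% of all genes were called, 5.56% as higher and 7.86% as lower, so a count of 6 in 49 is not far from the background. The share with an unadjusted limma p under 0.05 was also near it, 14 members (28.6%) against 26.6% of all genes. Positive estimates were rarer among the members (10 of 49, 20.4%) than among all genes (46.8%). The median log2 fold change was -0.33 over the members and -0.32 without Psma8, against -0.09 over all genes. Libraries of the groups did not overlap, with ILCP_WT lower, for 22 members (44.9%), against 21.4% of all genes. With 1 library of each group, taken to vary like the others, batch 1 gave a median of -0.08 over the members and 0 called members, while 863 genes were called. Batch 2 gave a median of -0.39, with 0 members and 0 genes called. Leaving out ILCP_WT replicate 2 left 1 member called, Psmb9, and leaving out ALP_WT replicate 2 or 3 left 3.

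**Figure D3:**
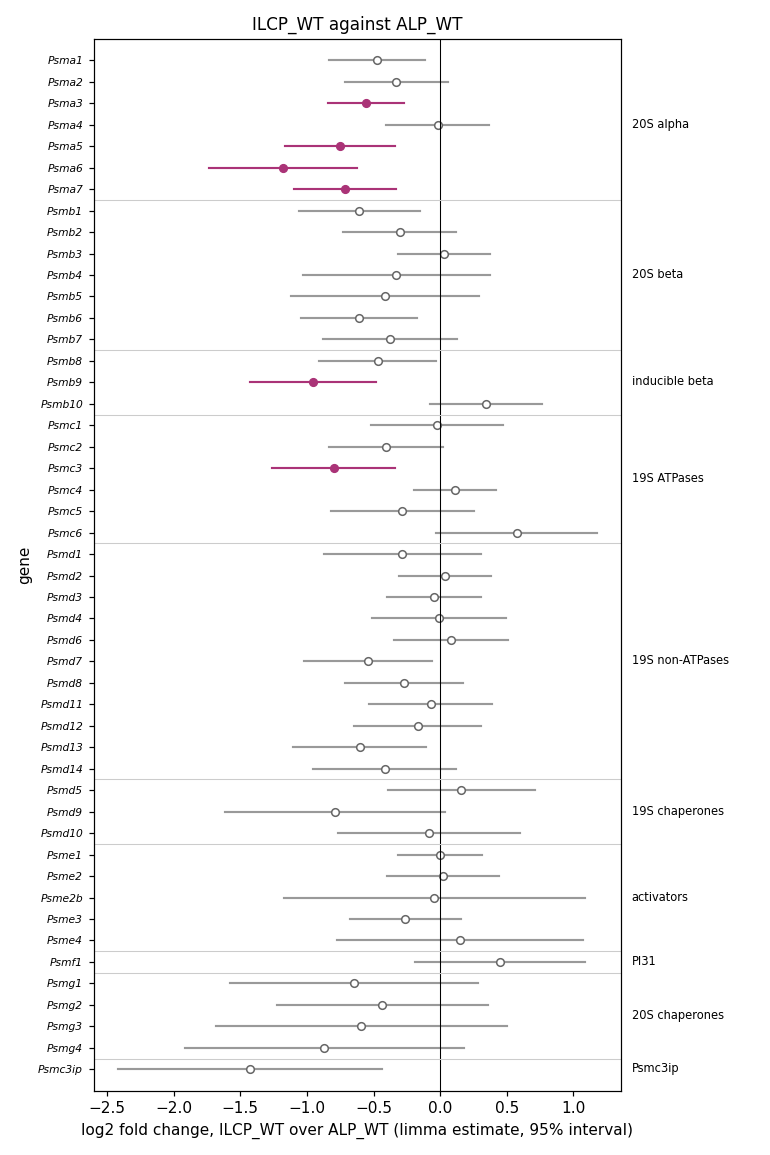
Log2 fold change of ILCP_WT over ALP_WT (x axis, limma estimate with 95% interval) for 48 proteasome genes by role (y axis; Psma8 is left out); filled points have an adjusted p under 0.05. Estimates of the alpha ring all lie at or left of 0, and the 6 filled points lie between -1.18 (Psma6) and -0.56 (Psma3).

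Members of the alpha ring, which gates the core, accounted for 4 of the 6 calls in ILCP_WT against ALP_WT. The 7 alpha genes other than Psma8 all had negative estimates, from -1.18 (Psma6) to -0.02 (Psma4). Psma6 stood at 7.79 and 6.94 in ILCP_WT libraries, against 8.23, 8.81 and 8.51 in ALP_WT libraries. The groups did not overlap, and ILCP_WT replicate 2 was the lowest of all 15 libraries. The log2 fold change was -1.18 (SE 0.25, limma adjusted p = 0.0103). Within batch 1 it was -0.44 and within batch 2 -1.72, and without ILCP_WT replicate 2 it was -0.73 with a limma adjusted p of 0.152. The alpha subunits themselves hold no proteolytic site.

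Psma3 stood at 8.09 and 7.92 in ILCP_WT libraries, against 8.63, 8.57 and 8.45 in ALP_WT libraries. Both ILCP_WT values lay below those of the other 13 libraries, of which the lowest was 8.34 in EILP_KO replicate 1. The log2 fold change was -0.56 (SE 0.13, limma adjusted p = 0.0162), with -0.54 in batch 1 and -0.59 in batch 2. Of the 50-base words of the Psma3 transcript, 22.0% also occur in the predicted gene Gm13835, so its reads could have been shared.

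Psma5 stood at 7.07 and 7.17 in ILCP_WT libraries, against 7.89, 7.87 and 7.82 in ALP_WT libraries. The ILCP_WT values were again the lowest of all 15. The log2 fold change was -0.75 (SE 0.19, limma adjusted p = 0.0221). More than the other called members, Psma5 shares sequence with other loci (54.5% of its words), and its value is uncertain to that extent. Psma7, in contrast, shared no word with another gene. It stood at 8.01 and 7.62 in ILCP_WT libraries, against 8.42, 8.62 and 8.47 in ALP_WT libraries, without overlap. Its log2 fold change was -0.72 (SE 0.18, limma adjusted p = 0.0185). The remaining alpha genes Psma1, Psma2 and Psma4 were not called, with estimates of -0.47, -0.33 and -0.02.

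No constitutive beta subunit was called in ILCP_WT against ALP_WT, and 6 of 7 estimates were negative (median -0.38). Psmb6, which cuts after acidic residues, came closest. It stood at 7.61 and 7.25 in ILCP_WT libraries, against 7.89, 8.26 and 8.03 in ALP_WT libraries, and the groups did not overlap. The estimate was -0.61 (SE 0.20, limma adjusted p = 0.0654). It was -0.87 and passed without ILCP_WT replicate 1 (limma adjusted p = 0.0347), and it was -0.31 without ILCP_WT replicate 2 (limma adjusted p = 0.506). It also passed without either EILP_KO library, at -0.62. Psmb5, which cuts after hydrophobic residues and is the main target of proteasome inhibitors, stood at 7.17 and 6.10 in ILCP_WT libraries, against 6.51, 7.37 and 7.23 in ALP_WT libraries. Its groups overlapped, since ILCP_WT replicate 2 was the lowest library and ALP_WT replicate 1 the next. The estimate was -0.42 (SE 0.33, limma adjusted p = 0.457), and the within-batch values had opposite signs, 0.65 in batch 1 and -1.20 in batch 2. Psmb7, which cuts after basic residues, gave -0.38 (limma adjusted p = 0.328). Psmb3 was flat, with group means between 7.88 and 8.09, although 55.8% of its words occur in other loci.

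The estimates of the 3 inducible subunits did not share 1 sign. Psmb9 (LMP2) stood at 6.99 and 7.14 in ILCP_WT libraries, against 7.80, 8.16 and 8.11 in ALP_WT libraries. Both ILCP_WT values were the lowest of all 15 libraries. Psmb9 fell by 0.95 on the log2 scale (SE 0.22, limma adjusted p = 0.0129), and the call was kept in 23 of 27 alternative settings. The setting that only removed Psmc3ip from the finished fit is among the 27 and could not change this call. The within-batch values were -0.80 and -0.99, and the call was lost without ILCP_WT replicate 1 (-0.86, limma adjusted p = 0.0759). Over the wild-type stages its mean was 8.02 ± 0.20 in ALP_WT (n = 3), 7.66 ± 0.05 in sEILP_WT (n = 2), 7.36 ± 0.07 in cEILP_WT (n = 3) and 7.07 ± 0.11 in ILCP_WT (SD, n = 2). Libraries of neighbouring stages did not overlap, yet limma called none of these differences, which were -0.37 for sEILP_WT against ALP_WT, -0.29 for cEILP_WT against sEILP_WT and -0.29 for ILCP_WT against cEILP_WT. Such non-overlap with the later stage lower was common, at 14.7%, 13.8% and 19.9% of all genes.

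Psmb10 (MECL-1) stood at 7.51 and 7.28 in ILCP_WT libraries, against 6.86, 7.34 and 6.94 in ALP_WT libraries. ILCP_WT replicate 1 was the highest of all 15, but ALP_WT replicate 2 lay above ILCP_WT replicate 2. The estimate was positive and uncalled, 0.34 (SE 0.19, 95% interval -0.08 to 0.77, limma adjusted p = 0.284). Psmb8 (LMP7) stood at 8.95 and 8.83 in ILCP_WT libraries, against 8.93, 9.65 and 9.53 in ALP_WT libraries, with an estimate of -0.47 (limma adjusted p = 0.159). Its groups overlapped through ALP_WT replicate 1, which was in batch 1, and the within-batch values were 0.02 and -0.76. Without that library the estimate was -0.75 and passed the threshold (limma adjusted p = 0.0179).

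Within a library, the Psmb9 value minus the Psmb10 value averaged -0.32 ± 0.27 in ILCP_WT and 0.97 ± 0.18 in ALP_WT (SD, n = 2 and 3). The difference of -1.30 gave p = 0.2 in a 2-sided exact permutation test, the smallest p that 10 arrangements allow. Against EILP_WT, with 0.73 ± 0.11 (SD, n = 3), the difference was -1.05, with the same exact permutation p of 0.2. The Psmb10 value minus that of Psmb7, the subunit it replaces, averaged 1.08 ± 0.07 in ILCP_WT and 0.37 ± 0.41 in ALP_WT (SD, n = 2 and 3; exact permutation p = 0.2). For the other replacement pairs, Psmb9 minus Psmb6 averaged -0.36 ± 0.36 in ILCP_WT and -0.04 ± 0.10 in ALP_WT (exact permutation p = 0.2), and Psmb8 minus Psmb5 averaged 2.26 ± 0.67 in ILCP_WT and 2.34 ± 0.08 in ALP_WT (exact permutation p = 0.8). Over the 12 exact permutation tests of such pairs, the lowest adjusted p was 0.48. These pair values are relative within a gene pair and say nothing about how much protein of each subunit is present.

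**Figure D4:**
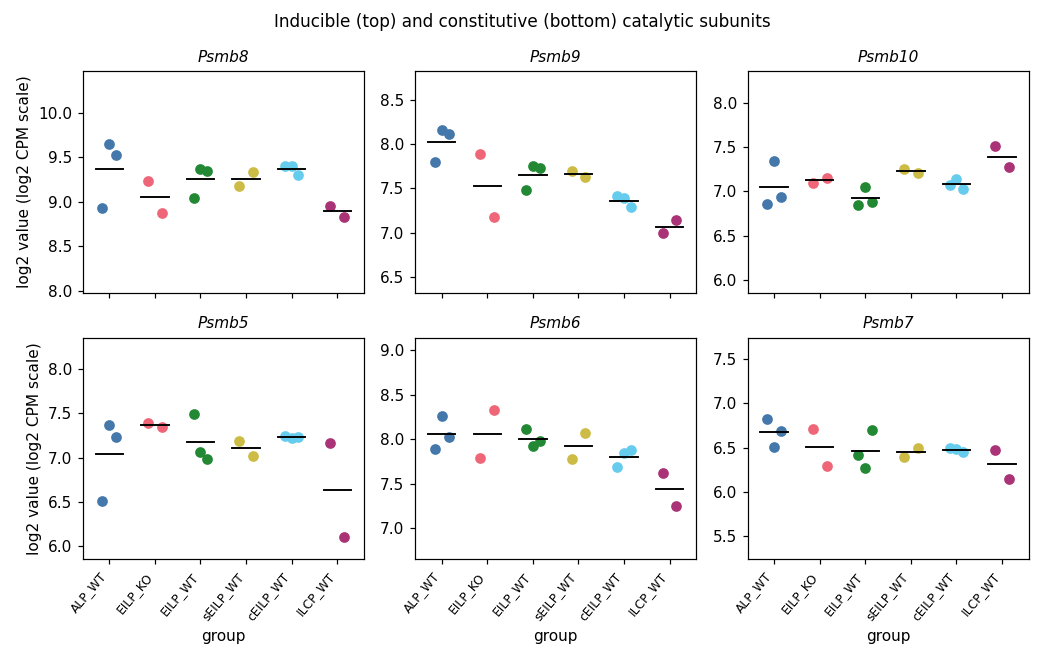
Log2 values (y axis, log2 CPM scale) of the inducible subunits Psmb8, Psmb9 and Psmb10 (top) and of the constitutive subunits they replace, Psmb5, Psmb6 and Psmb7 (bottom), by group (x axis); points are libraries and bars are group means. For Psmb9 the ILCP_WT points, 6.99 and 7.14, are the lowest, whereas for Psmb10 an ILCP_WT point, 7.51, is the highest.

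The promoter windows of these catalytic subunits are shown because Psmb9 and Psmb10 gave estimates of opposite sign and because interferon and Nfe2l1 response elements are known controls of proteasome genes. Windows run from 250 bases before to 50 bases after the RefSeq transcript start (build GRCm38.p6), 5′ to 3′ on the gene's strand, and capitals mark TGACNNNGC, the core of the antioxidant response element bound by the Nfe2l1 and Nfe2l2 factors. They cover chr17:34187281-34187580 (minus strand) for Psmb9, chr8:105938343-105938642 (minus strand) for Psmb10, chr14:54617946-54618245 (minus strand) for Psmb5 and chr11:70525107-70525406 (plus strand) for Psmb6.
Psmb9: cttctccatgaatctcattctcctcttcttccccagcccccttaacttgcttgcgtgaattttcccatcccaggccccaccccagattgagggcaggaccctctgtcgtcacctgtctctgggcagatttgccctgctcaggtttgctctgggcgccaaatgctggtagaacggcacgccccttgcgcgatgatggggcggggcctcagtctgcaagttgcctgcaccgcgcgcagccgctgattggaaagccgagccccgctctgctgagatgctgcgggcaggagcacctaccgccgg
Psmb10: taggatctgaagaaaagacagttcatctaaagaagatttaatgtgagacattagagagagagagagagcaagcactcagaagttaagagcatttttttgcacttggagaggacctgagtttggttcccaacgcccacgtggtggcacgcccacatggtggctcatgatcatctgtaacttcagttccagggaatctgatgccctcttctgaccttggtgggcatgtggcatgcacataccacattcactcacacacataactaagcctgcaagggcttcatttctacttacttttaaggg
Psmb5: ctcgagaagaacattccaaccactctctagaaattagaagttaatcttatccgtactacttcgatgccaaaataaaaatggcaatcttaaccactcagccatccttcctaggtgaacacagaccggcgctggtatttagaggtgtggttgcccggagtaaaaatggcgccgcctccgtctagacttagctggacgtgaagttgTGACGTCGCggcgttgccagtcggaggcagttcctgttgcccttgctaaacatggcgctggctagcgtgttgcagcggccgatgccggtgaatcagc
Psmb6: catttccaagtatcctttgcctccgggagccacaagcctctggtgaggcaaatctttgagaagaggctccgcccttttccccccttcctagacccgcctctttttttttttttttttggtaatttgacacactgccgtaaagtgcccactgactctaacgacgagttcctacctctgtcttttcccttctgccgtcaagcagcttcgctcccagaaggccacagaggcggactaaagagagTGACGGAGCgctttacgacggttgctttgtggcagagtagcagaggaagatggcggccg
The search covered both strands of 44 windows of 41 members and all 32851 windows of the table, and overlaps between the motifs were not removed. TGACNNNGC was found in 6 member windows (Psmb5, Psmb6, Psmc6, Psmd12, Psmd9 and Psme4), 13.6% against 12.4% of all windows. The core of the interferon-stimulated response element, searched as GAAA, any 2 bases and GAAA again, was found in 5 (Psmb3, Psmd4, Psmd9, Psme1 and Psmg4), 11.4% against 3.44% of all windows. Psmd9 held both. Neither string occurs in the windows of Psmb8, Psmb9 or Psmb10, which says only that these letters are not in these 300 bases. Psmb9 (chr17:34181987-34187764) overlaps the divergent gene Tap1 by 212 bases, and Psmb8 begins 495 bases past Tap1 (GENCODE M21 annotation of GRCm38). GENCODE starts Psmb9 at 34187764, outside the RefSeq window given above (34187281-34187580), so the overlap depends on the annotation. The start of Psmb8 differs likewise, at 34197721 in GENCODE and inside the window 34197945-34198244 in RefSeq. The labels state neither the annotation nor the strand setting of the counting, so any reads from an overlap of Psmb9 and Tap1 cannot be assigned to 1 gene.

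Among the 6 cap ATPases, Psmc3 (Rpt5) fell in ILCP_WT against ALP_WT. It stood at 8.0 and 7.11 in ILCP_WT libraries, against 8.20, 8.47 and 8.31 in ALP_WT libraries. The groups did not overlap, but ILCP_WT replicate 1 lay within the range of EILP_WT and only replicate 2 stood apart. The log2 fold change was -0.80 (SE 0.21, limma adjusted p = 0.0256), and without ILCP_WT replicate 2 it was -0.36 (limma adjusted p = 0.355). Within batches it was -0.21 and -1.27. Psmc4 and Psmc6, other ATPases of the ring, gave positive estimates of 0.11 and 0.57, neither called, and Psmc6 was the highest estimate of all members in this comparison.

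None of the 11 non-ATPase subunits of the cap was called in ILCP_WT against ALP_WT, and 9 of 11 estimates were negative (median -0.17). The scaffold subunit Psmd2 was flat, at 9.09 and 9.10 in ILCP_WT libraries, against 9.11, 8.99 and 9.08 in ALP_WT libraries. So was the ubiquitin receptor Psmd4, with an estimate of -0.01. Psmd13, a lid subunit, gave -0.60 (limma adjusted p = 0.109), with 7.33 and 6.37 in ILCP_WT libraries, against 7.35, 7.35 and 7.52 in ALP_WT libraries. The groups did not overlap, but ILCP_WT replicate 1 lay just under the lowest ALP_WT value and only replicate 2 stood clear. Psmd14, the deubiquitinase that strips ubiquitin from substrates, gave -0.42, uncalled.

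The assembly chaperones of the core, Psmg1 to Psmg4, had 4 negative estimates of 4 in ILCP_WT against ALP_WT (median -0.62), and none was called. Psmg4 stood at 3.50 and 3.81 in ILCP_WT libraries, against 4.56, 4.78 and 4.28 in ALP_WT libraries. The groups did not overlap, yet at this low level the estimate of -0.87 had an SE of 0.48 (limma adjusted p = 0.277). The chaperones of the cap, Psmd5, Psmd9 and Psmd10, gave 0.16, -0.79 and -0.09, none called. Genes of the PA28 and PA200 activators had a median of -0.00. Psme1 and Psme2, the interferon-inducible PA28 subunits, stood near their ALP_WT levels, with estimates of -0.00 and 0.02. Psme2b shares 68.7% of its words with Psme2, so these counts may be split between them. PI31 (Psmf1) gave 0.45, uncalled, at 6.57 and 6.25 in ILCP_WT libraries, against 6.43, 5.66 and 5.71 in ALP_WT libraries, with overlap.

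Psma8, the testis-specific alpha subunit, was the only member at a library's lowest value. Both ILCP_WT libraries listed it at their lowest value, against 3.96, 2.76 and 2.53 in ALP_WT libraries. Its other values were 2.47 and 3.39 in EILP_KO, 1 of 3 libraries above the lowest value in EILP_WT (3.54), 1 of 2 in sEILP_WT (3.26) and 2 of 3 in cEILP_WT (2.28 and 1.18). It was not called in any of the 7 comparisons, and no fold is given against a group at the lowest value. Psmc3ip stood at 3.37 and 3.88 in ILCP_WT libraries, against 5.31, 4.69 and 5.08 in ALP_WT libraries. These did not overlap, and the estimate of -1.43 (SE 0.46, limma adjusted p = 0.0587) was not called. Without Psmc3ip the calls were the same 6 of 48 and the median was -0.32.

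The same 2 ILCP_WT libraries were set against cEILP_WT and against EILP_WT, so these comparisons are not independent of the one with ALP_WT. Against cEILP_WT, 2 of 49 members fell and 0 rose, with 7.41% of all genes called, 2.69% as higher and 4.72% as lower. These were Psma6 and the ATPase Psmc2 (Rpt1). Psmc2 stood at 6.97 and 7.21 in ILCP_WT libraries, against 7.91, 7.86 and 7.65 in cEILP_WT libraries, and both ILCP_WT values were the lowest of all 15. Its log2 fold change was -0.73 (SE 0.20, limma adjusted p = 0.0426), and the call was lost without either ILCP_WT library (-0.62 without replicate 1 and -0.82 without replicate 2). The count was 1 without ALP_WT replicate 2, cEILP_WT replicate 3, or EILP_WT replicate 1 or 2. It was 0 without ALP_WT replicate 3, cEILP_WT replicate 1 or 2, ILCP_WT replicate 2 or either sEILP_WT library. Psma6 had 8.35, 8.40 and 8.20 in cEILP_WT libraries, all above both ILCP_WT values given above. Its log2 fold change was -0.93 (SE 0.25, limma adjusted p = 0.0472), and -0.53 without ILCP_WT replicate 2. An unadjusted limma p under 0.05 was held by 10 members (20.4%) and 22.2% of all genes. The median over members was -0.33, against -0.07 for all genes, and 21 members (42.9%) had ILCP_WT libraries below all cEILP_WT libraries, against 19.9% of all genes. Within batches the medians were -0.22 and -0.32, with 0 members called in each. Of 20 cell cycle genes, 2 rose and 2 fell (median 0.40).

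Against EILP_WT, 1 of 49 members was called, as lower, with 6.95% of all genes called, 2.61% as higher and 4.34% as lower. It was Psma3, which stood at 8.09 and 7.92 in ILCP_WT libraries, against 8.66, 8.57 and 8.51 in EILP_WT libraries, without overlap. The log2 fold change was -0.57 (SE 0.13, limma adjusted p = 0.0239). The count of called members was 2 or 3 without ALP_WT replicate 1 or 2, cEILP_WT replicate 3, ILCP_WT replicate 1, EILP_WT replicate 2 or 3 or either EILP_KO library, and 0 without EILP_WT replicate 1. The call of Psma3 was lost without either ILCP_WT library and without EILP_WT replicate 1, with values between -0.63 and -0.51 and a highest limma adjusted p of 0.121. Psmd8, a lid subunit, was next, with -0.73 and a limma adjusted p of 0.0502. An unadjusted limma p under 0.05 was held by 13 members (26.5%) and 22.3% of all genes. The median over members was -0.29, against -0.06 for all genes. Libraries did not overlap, with ILCP_WT lower, for 18 members (36.7%), against 17.5% of all genes. The signs of Psmb9 (-0.58, limma adjusted p = 0.133) and Psmb10 (0.47, limma adjusted p = 0.177) were again opposite, and neither was called. The within-batch medians were -0.24 and -0.31. Of 20 cell cycle genes, 0 rose and 1 fell (median -0.16).

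With both Tcf7 alleles null, no proteasome gene passed the threshold. In EILP_KO against EILP_WT, 0 of 49 members were called and 4 (8.16%) had an unadjusted p under 0.05. The limma test called 0.103% of all genes (13), and 1094 (8.7%) had an unadjusted p under 0.05, so few calls were made at all. The count over all genes was 2 without EILP_WT replicate 3 and 54 without EILP_KO replicate 2. Most estimates were positive, 35 of 49 (71.4%, and 52.8% over all genes). The members' median was 0.22, against 0.04 for all genes. Within batches the medians were 0.14 and 0.28. EILP_KO libraries lay above all EILP_WT libraries for 12 members (24.5%), against 9.59% of all genes. The smallest p belonged to the ATPase Psmc4, at 7.99 and 8.10 in EILP_KO libraries, against 7.65, 7.62 and 7.51 in EILP_WT libraries. These did not overlap. The estimate was 0.44 (SE 0.14, limma adjusted p = 0.429). All 4 core chaperones had positive estimates (median 0.47), the highest being Psmg2 with 0.73, which rested on EILP_KO replicate 2 (7.24, against 5.90 in replicate 1). Psme4, the PA200 activator, gave 0.76, with EILP_WT replicate 3 low at 4.40. The lowest estimate was that of Psmd10, -0.65, where EILP_WT replicate 3 was high at 6.87.

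In the same comparison the inducible subunits gave -0.21 (Psmb8), -0.12 (Psmb9) and 0.20 (Psmb10), and none was called. Psmb9 stood at 7.88 and 7.17 in EILP_KO libraries, against 7.48, 7.75 and 7.73 in EILP_WT libraries, so the EILP_KO libraries fell on either side of the controls. Psmb8 and Psmb9 had positive values in batch 1 (0.03 and 0.27). Of 20 cell cycle genes, 20 had positive estimates in EILP_KO against EILP_WT (median 0.46), 0 of them called, and their part in the member shift was not tested. Of the markers of 6 other cell types, 0 were called in this comparison. Myeloid markers gave 7 positive estimates of 8, with a summed level of 12.12 to 12.46 log2 units in EILP_KO and 9.30 to 11.99 in EILP_WT, none at the lowest value throughout either group. T-cell markers gave 0 positive of 7, with sums of 3.33 to 4.84 in EILP_KO (5 at the lowest value throughout) and 4.62 to 7.18 in EILP_WT (0). Erythroid and megakaryocyte markers gave 4 positive of 7, with sums of 7.76 to 10.57 in EILP_KO and 7.0 to 8.59 in EILP_WT. Positive estimates numbered 3 of 8 for natural killer and ILC markers (sums 5.35 to 6.81 in EILP_KO and 1.66 to 8.28 in EILP_WT), 5 of 7 for dendritic-cell markers (10.41 to 11.11 in EILP_KO and 9.64 to 10.83 in EILP_WT) and 2 of 4 for B-cell markers (5.84 to 6.78 in EILP_KO and 6.23 to 6.96 in EILP_WT). The part of these markers in the member shift was not tested.

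Between ALP_WT and the early ILC progenitors, no proteasome gene was called. In EILP_WT against ALP_WT, 0 of 49 members were called, against 3.21% of all genes, and the median was -0.09. An unadjusted p under 0.05 was held by 4 members (8.16%) and 16.5% of all genes. In sEILP_WT against ALP_WT, 0 members were called, against 0.803% of all genes, and the median was -0.05. There 1 member (2.04%) and 9.13% of all genes had an unadjusted p under 0.05. In cEILP_WT against sEILP_WT, limma called 0 members and 0% of genes, where 647 genes (5.15%) and 0 members had an unadjusted p under 0.05, and the median was -0.01. The comparisons with ALP_WT share its 3 libraries. In sEILP_WT against ALP_WT the highest estimate was that of Psmd5, a chaperone of cap assembly, at 7.81 and 7.94 in sEILP_WT libraries, against 6.59, 7.11 and 7.54 in ALP_WT libraries. The sEILP_WT values lay above all ALP_WT values, and the estimate of 1.00 (SE 0.27) had a limma adjusted p of 0.196. Psmd5 gave 0.52 in EILP_WT against ALP_WT (limma adjusted p = 0.286).

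At the other end, Psmg1 gave -0.91 in sEILP_WT against ALP_WT and Psmg3 gave -0.54 in EILP_WT against ALP_WT, both uncalled. Psmc1 in sEILP_WT against ALP_WT gave 0.42, with ALP_WT replicate 1 low at 7.27 beside 8.27 and 8.28. Between cEILP_WT and sEILP_WT the highest estimates were 0.52 (Psmd10) and 0.41 (Psme4), and the lowest were -0.53 (Psmg4) and -0.37 (Psmb2). Psmb2 stood at 7.99, 8.01 and 7.88 in cEILP_WT libraries, against 8.37 and 8.30 in sEILP_WT libraries, without overlap. Such non-overlap with cEILP_WT lower held for 11 members (22.4%), against 13.8% of all genes.

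**Figure D5:**
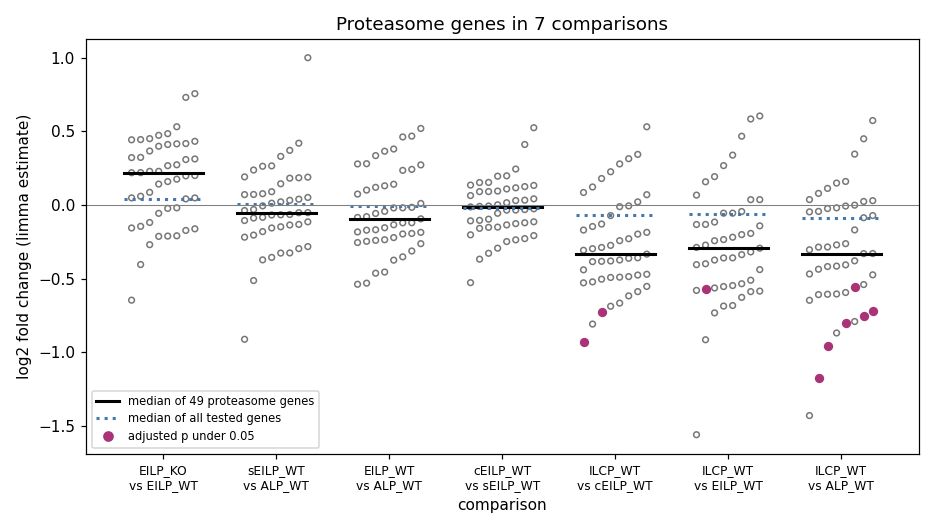
Log2 fold changes (y axis, limma estimates) of 48 proteasome genes (points, with Psma8 left out) in 7 comparisons (x axis). Black bars are medians of all 49 members, dotted bars medians of all tested genes, and filled points have an adjusted p under 0.05. The black bars of the ILCP_WT comparisons lie at -0.33, -0.29 and -0.33, that of EILP_KO against EILP_WT at 0.22 and the others near 0.

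Neighbouring pathways did not all share the direction of the proteasome genes in ILCP_WT against ALP_WT. Of 11 proteasome partners without a Psm symbol, 1 rose and 0 fell: the proteasome-binding protein gene Zfand5, at 8.04 and 8.42 in ILCP_WT libraries, against 7.23 to 7.70 in ALP_WT libraries (log2 fold change 0.81, limma adjusted p = 0.0216). Most of these 11 partners went the way of the members, with 8 negative and 3 positive estimates and a median of -0.39. The core maturation factor Pomp gave -0.61, uncalled (limma adjusted p = 0.0603). Of 10 substrate shuttles and p97 partners, 0 were called, with a median of -0.15. Of 8 genes for transcription factors of proteasome genes and their processing, 2 rose and 0 fell. They were Ngly1, whose product deglycosylates and activates Nfe2l1 (log2 fold change 1.34, limma adjusted p = 0.0281), and Stat3 (1.06, limma adjusted p = 0.0456). Nfe2l1 itself gave 0.55 and Nfe2l2 0.21, both uncalled.

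MHC class I genes, which use the peptides of the immunoproteasome, gave 6 positive and 6 negative estimates of 12 in ILCP_WT against ALP_WT (median 0.16). Of these 4 were called as higher and 0 as lower. Those that rose were H2-D1 (0.71), H2-K1 (0.66), Tapbp (0.85) and Pdia3 (0.61), with limma adjusted p between 0.00884 and 0.0201. The peptide transporter genes beside Psmb8 and Psmb9 on chromosome 17 gave negative, uncalled estimates, -0.54 for Tap1 and -0.49 for Tap2. Calr rose in EILP_WT against ALP_WT (0.58) and in sEILP_WT against ALP_WT (0.99), and fell by 0.93 in ILCP_WT against cEILP_WT. Of the 12 MHC class I genes, 3 rose and 0 fell in EILP_WT against ALP_WT. In sEILP_WT against ALP_WT 1 rose and 0 fell. In ILCP_WT 0 rose and 1 fell against cEILP_WT, and likewise against EILP_WT. Of 16 interferon-response genes, 2 fell, Bst2 (-2.25) and Oas1a (-2.37), and 0 rose in ILCP_WT against ALP_WT. Irf1, an inducer of Psmb9, gave 0.88, uncalled (limma adjusted p = 0.189). Of 20 cell cycle genes, 8 fell and 0 rose, 19 with negative estimates (median -0.82), and their part in the member shift was not tested.

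Markers of other cell types also moved in ILCP_WT against ALP_WT. Of 7 T-cell markers tested 4 rose, and of 8 natural killer and ILC markers 3 rose. The summed T-cell level was 8.32 to 8.83 log2 units in ILCP_WT and 4.45 to 5.67 in ALP_WT, with 3 of 7 markers at the lowest value in all ALP_WT libraries and 0 in all ILCP_WT libraries. Of 8 myeloid markers 2 fell, and their summed level was 7.54 to 9.86 in ILCP_WT and 10.20 to 11.13 in ALP_WT, with 0 at the lowest value throughout either group. The natural killer and ILC markers summed to 9.46 to 9.67 in ILCP_WT and 3.04 to 5.20 in ALP_WT, with 2 and 4 of 8 at the lowest value throughout. Of 7 dendritic-cell markers 3 fell and 1 rose, with sums of 9.06 to 9.11 in ILCP_WT and 10.32 to 10.96 in ALP_WT. Of 4 B-cell markers 1 fell, with sums of 6.31 to 6.40 in ILCP_WT and 7.78 to 8.83 in ALP_WT. Of 7 erythroid and megakaryocyte markers 1 rose, with sums of 5.94 to 6.65 in ILCP_WT and 4.14 to 7.37 in ALP_WT. In ILCP_WT against cEILP_WT, 2 natural killer and ILC markers, 1 T-cell marker and 2 dendritic-cell markers rose, and 1 dendritic-cell and 1 erythroid or megakaryocyte marker fell. Natural killer and ILC sums in cEILP_WT were -1.65 to 4.94, and T-cell sums were 5.52 to 6.78. In ILCP_WT against EILP_WT, 1 natural killer or ILC marker and 1 dendritic-cell marker rose, and 2 myeloid, 1 dendritic-cell and 1 erythroid or megakaryocyte marker fell. The part of these markers in the proteasome values was not tested.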

How the data were processed

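Expression was measured by RNA sequencing of sorted mouse bone marrow progenitors in 15 libraries. RNA was extracted with an RNeasy Plus Micro kit, and libraries were made with the SMARTer Ultra Low Input kit and Nextera XT, per the labels' protocols. Reads were processed by the authors with bcl2fastq 2.17, STAR 2.5.2b, RSEM 1.2.23 and limma on build mm10, per the submitters' processing notes. The gene annotation and strand setting are not given in the sources used here. The unit of the deposited values is not stated, and they were taken to be log2 CPM, judged from the values themselves. Apart from ties at the lowest value every library has nearly the same distribution, as quantile normalization gives. Linear values sum to between 998697 and 999292, which does not show whether they were scaled by transcript length. The values were used as deposited. Quantile normalization forces equal distributions, so a change shared by most genes would not be seen. No counts were given, so depth and counting error are unknown.

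All 15 libraries entered 1 limma fit (limma 3.58.1, R 4.3.3) with group and the labels' batch (9 and 6 libraries) as terms and a mean-variance trend, on the 12572 genes that reached a log2 value of 0 in 2 or more libraries. There were 7 pairwise comparisons and a moderated F test over 6 groups. P-values were adjusted by Benjamini-Hochberg over all tested genes, with 0.05 as threshold. The batch term itself was called for 0 genes by limma, with 954 genes and 3 members at an unadjusted p under 0.05. A check of the fit on simulated data covered only changes larger than the members' medians found here. It does not show how well changes of that smaller size would be called. Gene positions and shared 50-base words came from GENCODE M21, promoter windows from RefSeq on GRCm38.p6.

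Named genes were the inducible subunits and the subunits they replace, every called member, the 2 highest and 2 lowest estimates of each comparison and members at a library's lowest value. Psma1, Psma2, Psma4, Psmb3, Psmc4, Psmd2, Psmd4, Psmd8, Psmd9, Psmd12, Psmd13, Psmd14, Psme1, Psme2 and Psmg2 fall outside this rule and were picked with their values in view. Members and gene lists were chosen with earlier results of these data known. Alternatives were other scalings, filters, designs, batches, the omission of each library and the removal of Psmc3ip from the finished fit. The list of ubiquitin genes is not reported here.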

Additional observations from a re-analysis of the deposited data

How the results depend on the processing

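The members' median change kept its sign under 27 of 27 alternatives in each ILCP_WT comparison and in EILP_KO against EILP_WT. It ranged from -0.39 to -0.08 in ILCP_WT against ALP_WT, from -0.36 to -0.16 against EILP_WT, from -0.36 to -0.20 against cEILP_WT, and from 0.14 to 0.28 in EILP_KO. These alternatives share the same libraries and are not independent checks, and 15 of the 27 only leave out 1 library. Some could hardly move the median, among them the removal of Psmc3ip from the finished fit. No filter, the stricter filter, values below 0 set to 0 and repeated quantile normalization all left it at -0.33 in ILCP_WT against ALP_WT. Calls were less stable. Cyclic loess gave 3, 0 and 0 called members against ALP_WT, EILP_WT and cEILP_WT, with medians of -0.18, -0.16 and -0.20. Batch 1 alone gave 0 in all 3, with medians of -0.078 against ALP_WT and -0.22 against cEILP_WT, and batch 2 alone and fits of only the 2 groups compared also gave 0 in all 3. Library weights gave 0 against EILP_WT and cEILP_WT. Whether the replicate numbers pair the samples could not be settled. Of 33 same-numbered pairs, 5 had a correlation of deviations over 0.1 (range -0.34 to 0.23). These deviations were taken after group and batch in groups of 2 or 3 libraries. They are therefore not independent, and a pairing that follows batch is already removed. With the replicate number as a block the counts were 4, 0 and 0, and the block changed no other count. Against EILP_WT the stricter filter (log2 value of at least 3) and the fit without batch each gave 4, and setting values below 0 to 0 gave 3. In batch 1 alone the median was 0.083 in EILP_WT against ALP_WT. It was 0.045 in sEILP_WT against ALP_WT, both there and with only the 2 groups compared. Leaving out each library in turn gave 1 to 7 called members in ILCP_WT against ALP_WT, 0 to 2 against cEILP_WT, 0 to 3 against EILP_WT and 0 to 1 in the F test, and 0 in the other comparisons. The counts over all genes then ranged from 1057 to 1867 in ILCP_WT against ALP_WT, 509 to 1067 against cEILP_WT, 643 to 884 against EILP_WT, 177 to 421 in EILP_WT against ALP_WT, 20 to 110 in sEILP_WT against ALP_WT, 0 to 7 in cEILP_WT against sEILP_WT, 2 to 54 in EILP_KO against EILP_WT and 689 to 1108 in the F test. Medians then ranged from -0.38 to -0.24, -0.36 to -0.24 and -0.36 to -0.18 in the 3 ILCP_WT comparisons. They ranged from -0.15 to 0.0013 in EILP_WT against ALP_WT, -0.16 to 0.0041 in sEILP_WT against ALP_WT and -0.07 to -0.0025 in cEILP_WT against sEILP_WT. No called estimate reversed, and uncalled ones did. In batch 1 alone Psmb6, Psmb8 and Psmb9 gave -0.23, 0.028 and 0.27 in EILP_KO against EILP_WT, and Psmb5 and Psmb8 gave 0.65 and 0.018 in ILCP_WT against ALP_WT. In batch 2 alone Psma8 and Psmb7 gave -0.15 and -0.41 in EILP_KO against EILP_WT, and Psma8 gave 0.89 in EILP_WT against ALP_WT. With 1 library left out, EILP_KO against EILP_WT gave -0.14 to 0.28 for Psmb7, -0.21 to 0.32 for Psmb6, -0.49 to 0.036 for Psmb8 and -0.56 to 0.27 for Psmb9. Psma8 then gave -5.18 to 0.34 in sEILP_WT against ALP_WT, with no value where a group was left with only undetected libraries, Psmb5 gave -0.98 to 0.21 in ILCP_WT against ALP_WT, and Psme4 gave -0.16 to 0.98 in cEILP_WT against sEILP_WT. The causes were not tested. A left-out library can leave a group with 1 sample, which is then assumed to vary like the others. Groups of 2 or 3 libraries and unknown depth limit what could be called. A pseudocount was not varied because the values are already on a log scale, and batch 2 alone holds no sEILP_WT library.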
